A study of Mus musculus with 16 samples.

Results

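RNA of the hippocampus of female mice aged 8 months was sequenced in bulk. There were 16 libraries, and their 4 groups of 4 cross a tau transgene with a knockout of p16. The groups are PS19_p16KO (transgene present, p16 knocked out), PS19 (transgene present, p16 intact), p16KO (no transgene, p16 knocked out) and WT (no transgene, p16 intact). The genes described here are 7 of the 49671 gene rows of the count table: Ehd3, Heatr5b, Gpatch11, Eif2ak2, Tmem178 and Cox7a2l, which lie together on chromosome 17, and Nnt on chromosome 13. They were chosen by their p16 fold changes in earlier results of the same libraries (knockout over intact, with the transgene, without it and averaged over it). Their p16 differences are therefore given as a description with no test, and tests are given only for the transgene and for its interaction with p16. The choice did not use the transgene comparisons. The interaction is the difference between the p16 effects with and without the transgene, both of which the choice used.

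PS19 mice express a human tau protein with a disease mutation under the promoter of the mouse prion gene Prnp, and serve as a mouse model for tau disease. As for p16, it is a cell cycle inhibitor and a marker of senescent cells, encoded by Cdkn2a together with a second protein that is read in another frame. The labels give neither the p16 knockout allele nor the strain background of any group, and do not state that the libraries of a group came from separate animals. P-values therefore measure the spread between these samples. In bulk tissue, fewer cells of a type and less RNA per cell cannot be told apart.

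As a check of the labels, Cdkn2a had 2 counts over the 4 PS19_p16KO libraries and 18 counts over the 4 PS19 libraries, and 3 counts over the 4 p16KO libraries and 8 over the 4 WT libraries. These counts are too low to check any single library. Prnp averaged 1863 ± 63.8 CPM in PS19_p16KO, 1770 ± 212 CPM in PS19, 1068 ± 8.47 CPM in p16KO and 1021 ± 43.3 CPM in WT (SD, n = 4 each). CPM gives the counts of a gene relative to all gene counts of its library. Libraries held between 18485552 and 22311322 gene counts, and each of 10 hippocampal neuron markers was detected in every library.

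The 7 genes have varied roles. Ehd3 encodes an EH-domain ATPase that remodels membranes during endocytic recycling. Heatr5b encodes a partner of the AP-1 adaptor complex, which sorts cargo between the trans-Golgi network and endosomes. Gpatch11 encodes a G-patch protein, a family whose members activate DEAH-box RNA helicases. Eif2ak2 encodes PKR, a kinase that double-stranded RNA activates, that interferon induces, and that phosphorylates a translation initiation factor to reduce protein synthesis. Tmem178 encodes a membrane protein of the endoplasmic reticulum, known in mouse osteoclasts for limiting calcium signals. Cox7a2l encodes a factor that joins respiratory complexes into supercomplexes. Nnt encodes the nicotinamide nucleotide transhydrogenase of the inner mitochondrial membrane, which makes NADPH, and part of the gene is deleted in the C57BL/6J substrain.

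All coordinates are 1-based in GRCm38. Ehd3 lies at chr17:73804134-73832094 on the plus strand and Heatr5b at chr17:78752898-78835364 on the minus strand. Gpatch11 lies at chr17:78835567-78848308 on the plus strand and Eif2ak2 at chr17:78852564-78882573 on the minus strand. Tmem178 lies at chr17:80944632-81001816 on the plus strand and Cox7a2l at chr17:83501918-83517330 on the minus strand. Nnt lies at chr13:119335448-119408997 on the minus strand. From the start of Ehd3 to that of Cox7a2l the interval spans 9.70 Mb. Inside it Heatr5b, Gpatch11 and Eif2ak2 are close neighbours, while Ehd3, Tmem178 and Cox7a2l stand apart from one another. A second Ensembl gene also named Nnt overlaps the one counted here, on the same strand, and was not analysed here.

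Heatr5b and Gpatch11 are transcribed away from each other, and their annotated gene bounds are separated by 202 bases. The RefSeq promoter window of Gpatch11 (GRCm38.p6, chr17:78835266-78835565, plus strand), from 250 bases before the start in RefSeq to 50 bases after it, also covers the annotated start of Heatr5b on the opposite strand. It ends just before the GENCODE gene bound of Gpatch11 given above. It is printed because it spans the stretch between the pair. Capitals mark its matches to GCATGCGC, letters of the site bound by the factor NRF1.
Gpatch11: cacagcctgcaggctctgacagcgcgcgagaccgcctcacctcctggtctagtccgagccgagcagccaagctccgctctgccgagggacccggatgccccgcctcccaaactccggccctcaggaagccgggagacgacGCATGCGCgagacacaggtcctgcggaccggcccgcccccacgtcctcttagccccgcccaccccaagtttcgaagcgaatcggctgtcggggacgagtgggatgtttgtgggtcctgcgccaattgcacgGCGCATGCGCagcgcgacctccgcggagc
There are 3 such matches over both strands, 2 of which overlap on opposite strands at the second place. At least 1 match was found in 2.71% of the 32851 RefSeq windows of this length. The same window holds 2 matches to the Sp1 box GGGCGG, found in 35.7% of windows, and 1 match to CCAAT, found in 37.4%. Its G and C content is 69.3%.

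The window of Eif2ak2 (GRCm38.p6, chr17:78882523-78882822, minus strand) is printed because PKR is an interferon-induced gene. Capitals mark its matches to GAAANNGAA, core letters of an interferon-stimulated response element.
Eif2ak2: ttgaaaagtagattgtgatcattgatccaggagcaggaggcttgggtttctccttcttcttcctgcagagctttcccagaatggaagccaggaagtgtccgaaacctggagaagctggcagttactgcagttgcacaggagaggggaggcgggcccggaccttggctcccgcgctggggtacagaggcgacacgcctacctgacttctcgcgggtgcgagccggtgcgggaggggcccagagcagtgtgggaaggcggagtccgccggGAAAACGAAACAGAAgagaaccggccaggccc
There are 2 such matches, which overlap each other, and at least 1 match on either strand was found in 8.56% of the windows. Windows were also found for Ehd3, Tmem178 and Cox7a2l, and neither of the 2 marked motifs occurs in any of those 3. No window was found for Heatr5b or Nnt. The windows show letters of the reference only, and binding was not measured.

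Of the 7 genes, 4 were higher and 3 were lower in libraries with the p16 knockout, and the direction was the same with and without the transgene. Averaged over the transgene, the log2 fold change of p16 knockout over intact p16 was 0.49 ± 0.08 for Nnt, 0.36 ± 0.05 for Cox7a2l, 0.25 ± 0.05 for Tmem178 and 0.20 ± 0.04 for Ehd3 (SE, 8 knockout and 8 intact libraries). It was -0.53 ± 0.10 for Eif2ak2, -0.47 ± 0.06 for Gpatch11 and -0.24 ± 0.05 for Heatr5b. All 7 belong to the 37 genes with an adjusted p under 0.05 in this comparison (0.226% of the 16372 genes tested), of which 16 were higher (0.0977%) and 21 lower (0.128%), and nothing is read from that, since the choice used this comparison. Between 2 and 7 of the 7 stayed past the threshold when any 1 library was left out. Adjusted p-values throughout come from an edgeR quasi-likelihood fit with Benjamini-Hochberg adjustment over all genes tested. In p16KO against WT alone none of the 16372 genes passed by that test (0%), and 653 (3.99%) had an unadjusted p under 0.05. With the same threshold 18 genes passed in DESeq2 and 11 in limma-voom. In PS19_p16KO against PS19 alone 135 genes passed, 0.825% of those tested, and Gpatch11, Eif2ak2 and Cox7a2l were among them. The number passing there was 278 in DESeq2 and 77 in limma-voom.

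**Figure D1:**
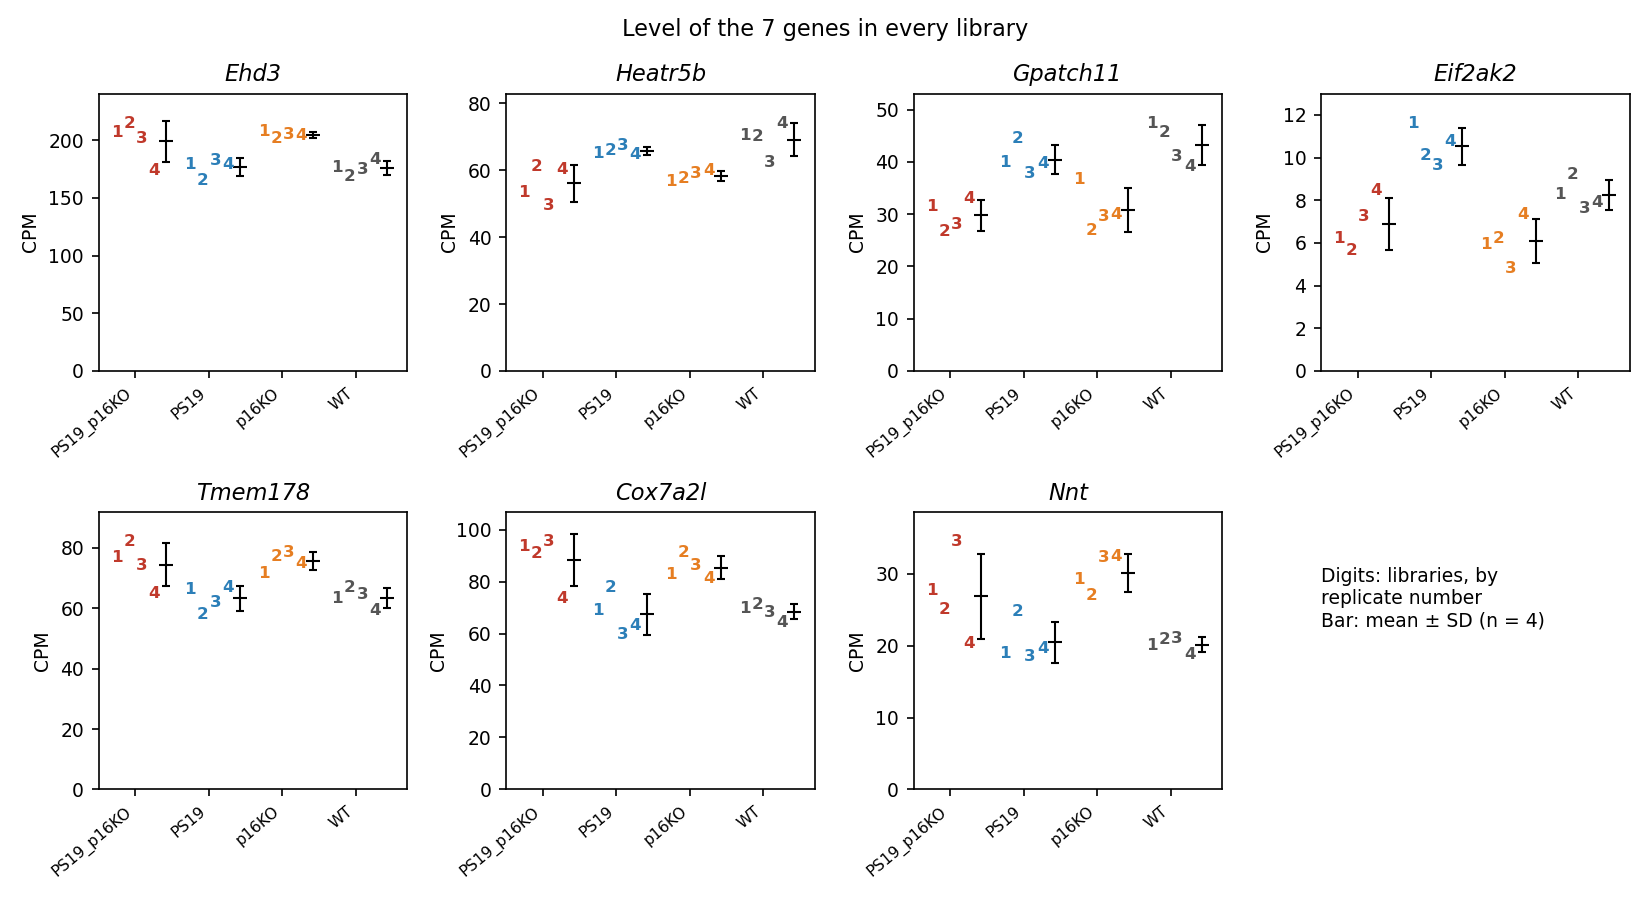
Level in CPM of each of the 7 genes in every library, with the replicate number as the symbol and the mean ± SD of the 4 libraries of each group as a bar, on linear axes that start at 0. The p16KO libraries do not overlap the WT libraries in any panel, and PS19_p16KO replicate 4 lies apart from replicates 1 to 3 toward the intact libraries for Ehd3, Tmem178, Cox7a2l and Nnt.

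Among the genes that were lower with the knockout, Gpatch11 was lower in every library. Its level was 31.4, 26.7, 27.98 and 32.9 CPM in PS19_p16KO libraries 1 to 4, against 39.9, 44.5, 37.8 and 39.7 CPM in PS19 libraries 1 to 4. It was 36.6, 26.8, 29.6 and 29.996 CPM in p16KO libraries 1 to 4, against 47.4, 45.6, 41.1 and 39.1 CPM in WT libraries 1 to 4. All 8 knockout libraries lay below all 8 intact libraries, including the highest of them, p16KO library 1. The log2 fold change was -0.43 ± 0.09 in PS19_p16KO against PS19 and -0.50 ± 0.09 in p16KO against WT. Gpatch11 averaged 29.8 ± 2.89 CPM in PS19_p16KO, 40.5 ± 2.86 CPM in PS19, 30.8 ± 4.15 CPM in p16KO and 43.3 ± 3.86 CPM in WT (SD, n = 4 each). Within each p16 genotype the libraries of the 2 groups overlapped.

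Heatr5b, its head-to-head partner, was lower in the same libraries by a smaller amount. It stood at 53.3, 61.1, 49.6 and 60.4 CPM in PS19_p16KO libraries 1 to 4, against 65.0, 65.9, 67.4 and 64.6 CPM in the PS19 libraries. The p16KO libraries had 56.8, 57.6, 59.2 and 60.0 CPM, against 70.4, 70.0, 62.3 and 74.1 CPM in the WT libraries. No knockout library reached the lowest intact library, WT library 3, and PS19_p16KO library 2 came closest to it. This gave a log2 fold change of -0.22 ± 0.07 in PS19_p16KO against PS19 and -0.25 ± 0.07 in p16KO against WT. After the group means were taken out, the levels of Heatr5b and Gpatch11 showed a Pearson correlation of 0.01 over the 16 libraries, against 0.72 with the group means left in.

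Eif2ak2 had the fewest counts of the 7 genes, between 94 and 216 per library. Its level was 6.21, 5.66, 7.24 and 8.44 CPM in PS19_p16KO libraries 1 to 4, against 11.6, 10.1, 9.63 and 10.8 CPM in PS19 libraries 1 to 4. It was 5.95, 6.22, 4.82 and 7.32 CPM in p16KO libraries 1 to 4, against 8.28, 9.19, 7.62 and 7.90 CPM in WT libraries 1 to 4. Within each transgene genotype the knockout and intact libraries did not overlap, but PS19_p16KO library 4 exceeded 3 of the 4 WT libraries. The log2 fold change was -0.61 ± 0.14 in PS19_p16KO against PS19 and -0.45 ± 0.14 in p16KO against WT. Group means were 6.89 ± 1.22 CPM in PS19_p16KO, 10.5 ± 0.86 CPM in PS19, 6.07 ± 1.02 CPM in p16KO and 8.25 ± 0.68 CPM in WT (SD, n = 4 each). When the groups are ordered by mean, PS19 stood highest and did not overlap its neighbour WT, whereas WT overlapped PS19_p16KO and PS19_p16KO overlapped p16KO. A long non-coding gene on the opposite strand, Gm26637, overlaps the start of Eif2ak2. It had 30 counts over all 16 libraries, against 2477 for Eif2ak2. No source used here says whether the counting used strand.

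Of the genes that were higher with the knockout, Ehd3 had the smallest difference. It stood at 207, 215, 201 and 174 CPM in PS19_p16KO libraries 1 to 4, against 179, 165, 183 and 179 CPM in the PS19 libraries. The p16KO libraries had 208, 202, 205 and 204 CPM, against 177, 169, 175 and 184 CPM in the WT libraries. The p16KO libraries were tightly grouped and all above WT, whereas PS19_p16KO library 4 fell among the intact libraries. On the log2 scale the difference was 0.18 ± 0.06 in PS19_p16KO against PS19 and 0.21 ± 0.06 in p16KO against WT.

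Tmem178 showed the same arrangement. Its level was 76.9, 82.1, 74.2 and 64.8 CPM in PS19_p16KO libraries 1 to 4, against 66.1, 57.9, 62.0 and 67.0 CPM in PS19 libraries 1 to 4. It was 71.7, 77.2, 78.5 and 74.8 CPM in p16KO libraries 1 to 4, against 63.1, 66.8, 64.5 and 59.1 CPM in WT libraries 1 to 4. Again the p16KO libraries were all above WT, and PS19_p16KO library 4 alone overlapped the intact range. The log2 fold change was 0.24 ± 0.07 in PS19_p16KO against PS19 and 0.25 ± 0.07 in p16KO against WT. After the group means were taken out, Tmem178 and Ehd3 had a Pearson correlation of 0.66 over the 16 libraries, which dropped to 0.41 without PS19_p16KO library 4, low for both genes.

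Cox7a2l had 93.5, 90.7, 95.4 and 73.5 CPM in PS19_p16KO libraries 1 to 4, against 69.0, 77.7, 59.5 and 63.3 CPM in the PS19 libraries. The p16KO libraries had 82.6, 91.2, 86.3 and 81.2 CPM, against 69.7, 71.1, 68.1 and 64.4 CPM in the WT libraries. The p16KO and WT libraries did not overlap, while PS19_p16KO library 4 lay below PS19 library 2, the highest of the intact libraries. In log2 terms the difference was 0.40 ± 0.08 in PS19_p16KO against PS19 and 0.31 ± 0.08 in p16KO against WT. Divided by the exon length of each gene, Cox7a2l was the most abundant of the 7 at a mean of 52.3 CPM per kb, followed by Tmem178 at 40.8, Ehd3 at 28.8, Heatr5b at 7.63, Gpatch11 at 5.87, Nnt at 3.47 and Eif2ak2 at 1.55 CPM per kb.

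Nnt had the largest difference of the 7 between p16KO and WT. Its level was 27.7, 25.0, 34.5 and 20.3 CPM in PS19_p16KO libraries 1 to 4, against 18.9, 24.8, 18.5 and 19.7 CPM in PS19 libraries 1 to 4. It was 29.1, 26.9, 32.2 and 32.5 CPM in p16KO libraries 1 to 4, against 19.96, 20.8, 21.1 and 18.8 CPM in WT libraries 1 to 4. Every p16KO library was above every WT library, PS19_p16KO library 4 was among the intact libraries, and PS19 library 2 was the highest of the intact libraries. Nnt averaged 26.9 ± 5.90 CPM in PS19_p16KO, 20.4 ± 2.91 CPM in PS19, 30.2 ± 2.64 CPM in p16KO and 20.1 ± 1.03 CPM in WT (SD, n = 4 each). Its log2 fold change was 0.40 ± 0.12 in PS19_p16KO against PS19 and 0.58 ± 0.12 in p16KO against WT. The table gives 1 count per gene, and the exons that the C57BL/6J deletion removes were not analysed here. Whether the counted gene model holds those exons was not checked. Nnt and Cox7a2l, on different chromosomes, had a Pearson correlation of 0.66 after the group means were taken out. It dropped to 0.40 without PS19_p16KO library 4, again low for both. Without that library, such correlations between the 7 genes ran from -0.77 for Ehd3 and Cox7a2l to 0.57 for Ehd3 and Heatr5b.

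Counted over the 7 genes, p16KO and WT libraries did not overlap in 7 of 7, where 2.99% of all genes tested show no overlap. In PS19_p16KO against PS19 this held for 3 genes, Heatr5b, Gpatch11 and Eif2ak2, against 4.07% of all genes. With all 8 knockout libraries set against all 8 intact libraries it held for Heatr5b and Gpatch11, against 0.0916% of all genes. These counts rest on the p16 differences that chose the genes. They changed with 1 library: without PS19_p16KO library 4, knockout and intact libraries did not overlap in 7 of 7 genes. With any other 1 knockout library left out, they did not overlap in 2. The share of all genes was not computed for these leave-out counts, so nothing is read from them.

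PS19_p16KO library 4 lay inside the range of the intact libraries for 5 of the 7 genes, and each of the other 7 knockout libraries did so for 0 of 7. The genes were chosen by differences between knockout and intact libraries, which favours knockout libraries outside the intact range. How often a knockout library lies inside that range over all genes was not computed. On a scale where 0 is the mean of the intact libraries and 1 the mean of the other knockout libraries, it had a median position of 0.213 over the 7 genes, with a range of -0.026 at Ehd3 to 0.671 at Gpatch11. The other 7 knockout libraries had medians of 0.967 to 1.35 on the same scale. At Nnt its position was 0.040, at Tmem178 0.176, at Eif2ak2 0.213, at Cox7a2l 0.340 and at Heatr5b 0.582. Leaving it out moved the average log2 fold change of Nnt to 0.54, of Cox7a2l to 0.39, of Tmem178 to 0.28, of Ehd3 to 0.23, of Heatr5b to -0.25, of Gpatch11 to -0.49 and of Eif2ak2 to -0.58. All 7 stayed past the threshold in that fit, in which 36 genes passed.

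**Figure D2:**
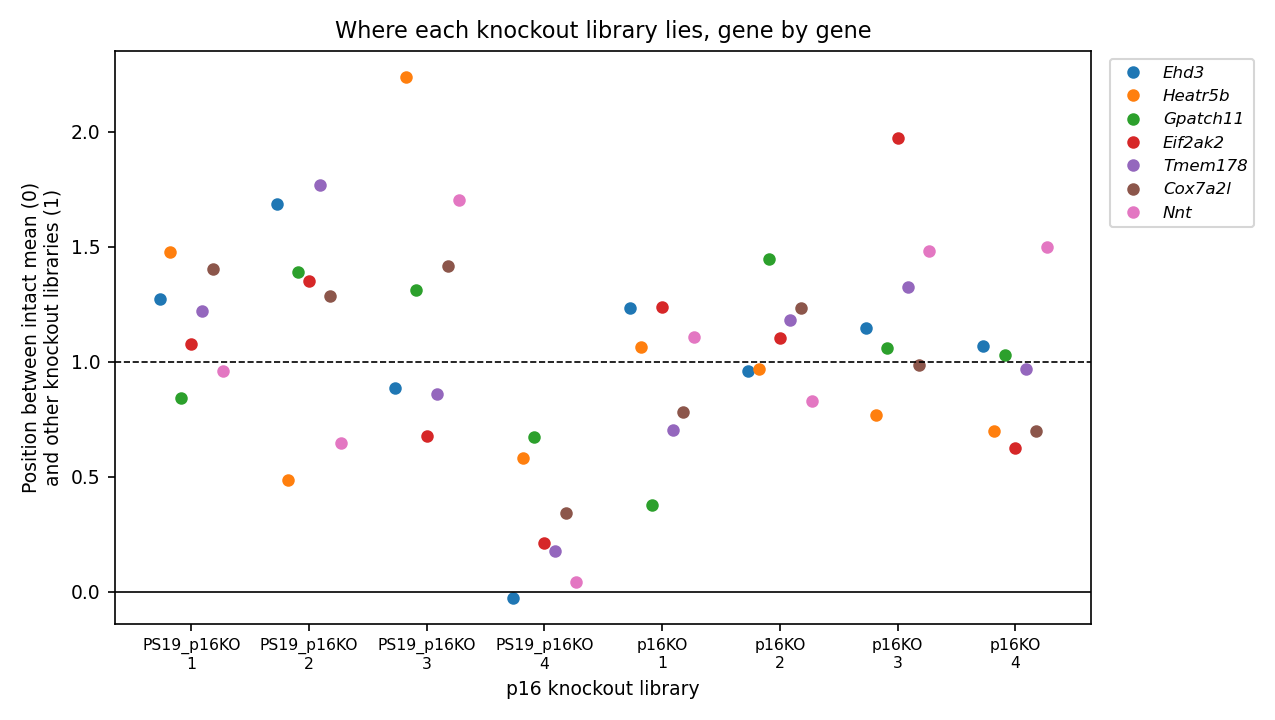
Position of each p16 knockout library at each of the 7 genes, where 0 is the mean of the 8 intact libraries and 1 the mean of the other 7 knockout libraries. PS19_p16KO replicate 4 has a median of 0.213, and the medians of the other libraries lie between 0.967 and 1.35.

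The same library did not lie near the intact mean at every gene that was called for p16. Over the 29 genes outside the chromosome 17 interval that were called without it, its median position was 0.315, with a range of -1.43 to 1.58. No such median is given for another left-out library, so 0.315 does not show whether this library was unusual there. It stood at 1.18 for Padi2, 1.16 for Rsg1 and 1.11 for Arhgef19, which neighbour one another on chromosome 4, and at -0.013 for Pon2 on chromosome 6 and 0.007 for Kirrel2 on chromosome 7. These 5 genes were chosen after their values were seen, as examples near 1 and near 0. Its Cdkn2a count was 0 and its summed level of 10 choroid plexus markers was 232 CPM. That sum was 9151 CPM in PS19_p16KO library 3, 5757 CPM in p16KO library 4 and 1643 CPM in WT library 1, and 188 to 468 CPM in the other 12 libraries. PS19_p16KO library 3 and p16KO library 4 lay inside the intact range for 0 of the 7 genes.

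Apart from these 6 genes, none of the tested genes of the chromosome 17 interval was called. The interval holds 45 tested genes, of which 6 were called, 3 higher and 3 lower (13.3%), all of them the genes described here. Of the remaining 39 genes 20 had a positive log2 fold change, with a median of 0.00, and 8 had an unadjusted p under 0.05 (20.5%, against 7.96% of all genes tested). Their median absolute log2 fold change was 0.09, against 0.06 over all genes tested. Closest to the threshold were Ttc27, at 17.8 CPM in knockout and 14.6 CPM in intact libraries with a log2 fold change of 0.28 ± 0.07, and Strn, at 96.2 CPM in knockout and 84.4 CPM in intact libraries with 0.19 ± 0.05. Just inside the threshold was Ehd3, with the 0.20 ± 0.04 given above. Ttc27 passed when PS19_p16KO library 4 was left out. No test is given for the interval, since its bounds were set by the genes themselves.

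**Figure D3:**
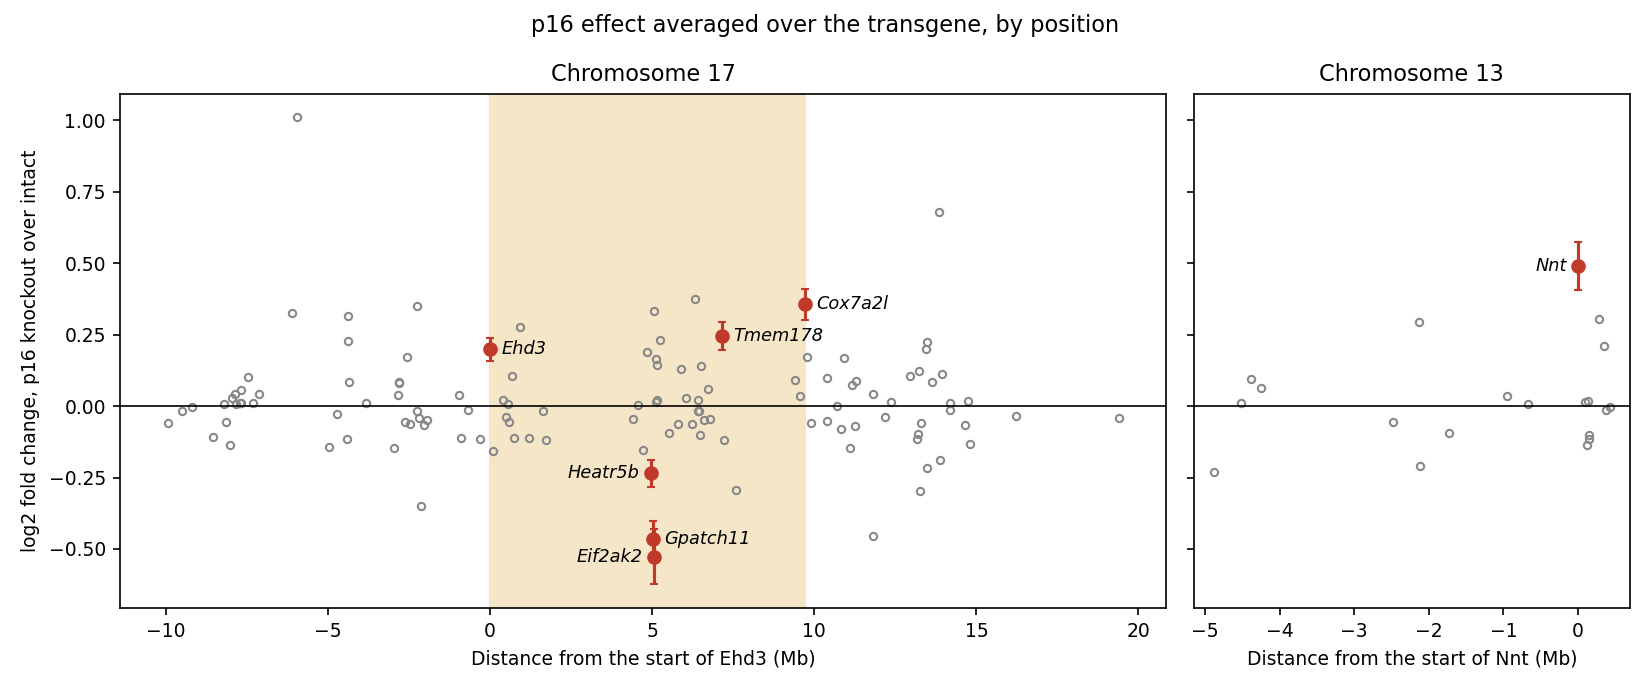
Log2 fold change of p16 knockout over intact p16, averaged over the transgene, against distance in Mb from the start of Ehd3 on chromosome 17 (left, interval shaded) and of Nnt on chromosome 13 (right). Filled points with SE bars are the 7 genes, open points all other tested genes nearby, and none of the other 39 tested genes of the interval was called.

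The 10 Mb on either side of the interval held no called gene. On the Ehd3 side 42 genes were tested and 9.52% had an unadjusted p under 0.05, and on the Cox7a2l side 35 genes were tested and 25.7% did. Chromosome 17 as a whole had 7 called genes of 765 tested (0.915%), the seventh being Myo1f outside the interval, and chromosome 4 had 8 of 1000 (0.800%). On chromosome 13, 19 other genes within 5 Mb of Nnt were tested, none was called, and 5.26% had an unadjusted p under 0.05. Of the tested genes in that window, Nnt was thus the only one called.

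Next to each gene, the nearest tested genes that are not among the 7 did not pass the threshold. On either side of Nnt, Fgf10 had a log2 fold change of 0.01 ± 0.07 and Paip1 of 0.01 ± 0.04, with an adjusted p of 0.989 and 0.960. Beside Ehd3, Galnt14 had -0.12 ± 0.07 and Xdh -0.16 ± 0.10. Between Gpatch11 and Eif2ak2, both lower with the knockout, lies Gm6548, at 2.81 CPM in knockout and 2.27 CPM in intact libraries with a log2 fold change of 0.33 ± 0.18 and an adjusted p of 0.671. Beyond Eif2ak2, Cebpzos had 0.16 ± 0.08 with an adjusted p of 0.621, and next to Heatr5b, Strn had an adjusted p of 0.187. Around Tmem178, Map4k3 had -0.05 ± 0.05 and Thumpd2 -0.12 ± 0.13. Around Cox7a2l, Eml4 had 0.04 ± 0.05 and Kcng3 0.17 ± 0.22.

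The transgene comparisons did not choose the genes. None of the 7 passed the threshold for the transgene averaged over p16, where 64 of 16372 genes did (0.391%). The log2 fold change of transgenic over non-transgenic libraries was 0.27 ± 0.10 for Eif2ak2, with a p of 0.0126 and an adjusted p of 0.340 in edgeR's quasi-likelihood test. For the other genes it was -0.01 ± 0.04 for Ehd3, -0.06 ± 0.05 for Heatr5b, -0.07 ± 0.06 for Gpatch11, -0.01 ± 0.05 for Tmem178, 0.02 ± 0.05 for Cox7a2l and -0.07 ± 0.08 for Nnt, with adjusted p-values of 0.718 to 0.973. Transgenic and non-transgenic libraries overlapped in 7 of 7 genes, and 0.0611% of all genes showed no overlap. A p that misses the threshold does not show that the transgene left a gene unchanged. For 6 of the 7 genes the standard error was under 0.09 on the log2 scale, and for Eif2ak2 it was 0.10.

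Whether the p16 difference itself depended on the transgene was tested by the interaction. None of the 7 genes passed, and 1 of 16372 genes did (0.00611%), with 890 (5.44%) at an unadjusted p under 0.05. The interaction was -0.03 ± 0.08 for Ehd3, 0.03 ± 0.10 for Heatr5b, 0.06 ± 0.13 for Gpatch11, -0.16 ± 0.20 for Eif2ak2, 0.00 ± 0.10 for Tmem178, 0.08 ± 0.11 for Cox7a2l and -0.18 ± 0.17 for Nnt on the log2 scale. Every one of these was smaller than or close to its standard error, with an adjusted p of 0.999 in each case. The p16 difference of Nnt, 0.40 with the transgene and 0.58 without it, was therefore not shown to differ between them. Choosing genes by both p16 differences can favour a small interaction, so nothing further is read from these tests.

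**Figure D4:**
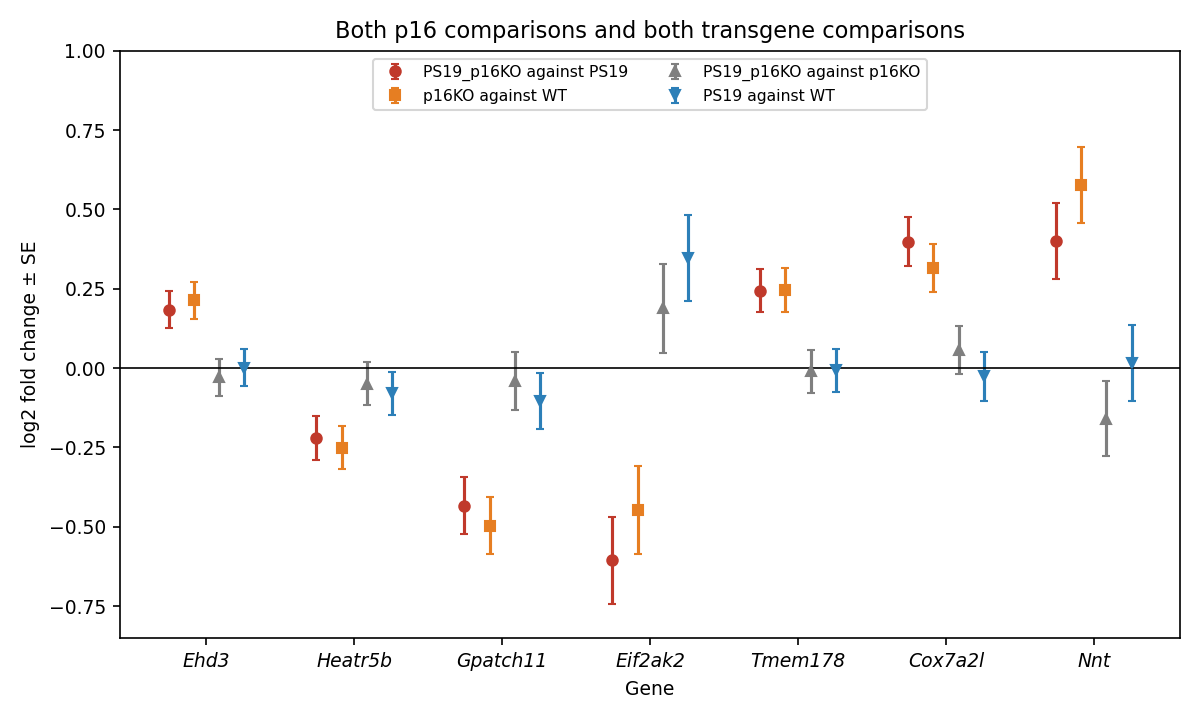
Log2 fold change ± SE of each gene in the 2 p16 comparisons (circles and squares) and the 2 transgene comparisons (triangles). The p16 comparisons, which chose the genes, lie on the same side of 0 with and without the transgene, and the transgene comparisons lie within 0.20 of 0 except PS19 against WT for Eif2ak2, at 0.35.

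In the single transgene comparisons, 1 of the 7 genes had groups that did not overlap, Eif2ak2 in PS19 against WT. PS19 against WT gave 0.35 ± 0.14 on the log2 scale, with an adjusted p of 0.346 in edgeR, and every PS19 library was above every WT library. Of all genes tested, 4.99% had PS19 and WT libraries that did not overlap, and 264 genes were called (1.61%). In PS19_p16KO against p16KO the log2 fold change of Eif2ak2 was 0.19 ± 0.14, with an adjusted p of 0.999, and the libraries overlapped. There 0 of the 7 genes separated, against 2.64% of all genes, and 3 genes were called (0.0183%), against 7 in DESeq2 and 4 in limma-voom.

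Microglial and astrocytic markers, like Eif2ak2, were highest in the PS19 libraries. The summed level of 10 microglial markers was 372 to 416 CPM in PS19_p16KO, 444 to 924 CPM in PS19, 340 to 424 CPM in p16KO and 315 to 358 CPM in WT, with all 10 detected in every library. That of 8 astrocyte markers was 4703 to 5553 CPM in PS19_p16KO, 6080 to 8750 CPM in PS19, 4886 to 5764 CPM in p16KO and 5372 to 5545 CPM in WT. The microglial sum was higher in 3 of 4 p16KO libraries than in any WT library. The part of these cell types in the level of Eif2ak2 was not tested.

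Each gene was then set beside a list of genes of its own pathway, in which its own call follows from the choice of the 7 genes and the counts of interest are those of the other genes. Among the 12 tested genes of the EHD family and endocytic recycling, Ehd3 was the only gene called for p16, and the median log2 fold change was 0.00, as it was over all genes tested. Its paralog Ehd1, at 117 ± 6.16 CPM in knockout and 105 ± 6.62 CPM in intact libraries (SD, n = 8 each), had 0.15 ± 0.04 with an adjusted p of 0.209. Among 14 tested genes of the HEATR5 proteins and the AP-1 adaptor, Heatr5b alone was called, and Cltc, the clathrin heavy chain, had -0.07 ± 0.04 with an adjusted p of 0.684. Among 16 G-patch proteins and DEAH-box helicases, Gpatch11 alone was called, with a median of -0.01, and Gpatch1 had -0.17 ± 0.05 with an adjusted p of 0.205.

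Eif2ak2 belongs to 16 tested genes of the eIF2 alpha kinases and the integrated stress response, of which it alone was called for p16, with a median log2 fold change of -0.01. Ddit3, a transcription factor induced by that response, had -0.14 ± 0.05 with an adjusted p of 0.476. Of 16 other genes for sensing double-stranded RNA and responding to interferon, 0 were called, 4 had a positive p16 difference and the median was -0.14. For the transgene averaged over p16, all 16 had a positive log2 fold change and 0 were called. Their median was 0.22, against 0.00 over all genes tested. The 2 p16 genotypes differed in this: 16 were positive in PS19 against WT, with a median of 0.51. In PS19_p16KO against p16KO 8 were positive, with a median of 0.06. Ifit3, an interferon-induced gene, averaged 6.78 CPM in PS19_p16KO, 11.3 CPM in PS19, 5.51 CPM in p16KO and 5.09 CPM in WT, with a transgene log2 fold change of 0.72 ± 0.21 and an adjusted p of 0.196.

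Among 10 tested genes of the Tmem178 family and calcium store entry, Tmem178 alone was called for p16, and the median was 0.03. Nfatc1, a transcription factor that calcium signals activate, was at 5.48 ± 0.67 CPM in knockout and 7.09 ± 1.56 CPM in intact libraries (SD, n = 8 each), with a log2 fold change of -0.35 ± 0.10 and an adjusted p of 0.215. Atp2a2, the calcium pump of the endoplasmic reticulum, had -0.07 ± 0.04 with an adjusted p of 0.702. Of 18 tested genes of cytochrome c oxidase and the supercomplexes, Cox7a2l alone was called. All 18 had a positive p16 log2 fold change, with a median of 0.06 against 0.00 over all genes tested. This was not particular to p16, since 16 of them were positive for the transgene averaged over p16, with a median of 0.05. Cox7a1, a paralog that is nearly silent here at 0.885 ± 0.239 CPM in knockout and 0.571 ± 0.186 CPM in intact libraries (SD, n = 8 each), had 0.64 ± 0.24 with an adjusted p of 0.454. Uqcrfs1, the Rieske subunit of respiratory complex III, had 0.07 ± 0.04 with an adjusted p of 0.665.

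Nnt was the only gene called for p16 among 17 tested genes of mitochondrial NADPH and redox, of which 6 had a positive log2 fold change, with a median of -0.03. Me3, the mitochondrial NADP-dependent malic enzyme, had -0.10 ± 0.05 with an adjusted p of 0.693, and Prdx5, a mitochondrial peroxiredoxin, had 0.10 ± 0.06 with 0.698. Nnt is also 1 of 9 genes known to differ among C57BL/6 substrains, of which 7 were tested. Crb1, a photoreceptor polarity gene with a frameshift in the C57BL/6N substrain, was at 0.407 ± 0.213 CPM in knockout and 1.14 ± 0.392 CPM in intact libraries (SD, n = 8 each), with a log2 fold change of -1.49 ± 0.32 and an adjusted p of 0.0570. Gabra2 had -0.03 ± 0.04, Wdfy1 -0.01 ± 0.04, Ide -0.04 ± 0.04 and Cyfip2 -0.04 ± 0.04, with adjusted p-values of 0.841 to 0.973. The strain background of the groups is not given in the labels, and its part in the level of Nnt was not tested.

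Finally, the genes whose levels over the 16 libraries were most like each of the 7 were listed by Pearson correlation of log2 CPM, as a description in which libraries share their group. Ehd3 was most like Kcnj11 on chromosome 7 (0.96), Galnt18 (0.89) and Tmem178 (0.88). Tmem178 was most like Ehd3, Kcnj11 (0.87) and Pde1b (0.85). Kcnj11, a subunit of ATP-sensitive potassium channels, was itself called for p16 and stood at 35.2 CPM in knockout and 24.4 CPM in intact libraries. Cox7a2l was most like Nnt (0.86), Fam71e1 (0.81) and Ankrd39 (0.80), and Nnt was most like Pon2 (0.90), Hspa8 (0.89) and Lrrk2 (0.86).

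Pon2, a paraoxonase gene on chromosome 6, was called for p16 as well, at 43.4 CPM in knockout and 28.9 CPM in intact libraries. Heatr5b was most like Acaca (0.90), Mdga2 (0.86) and Slc8a1 (0.85), and only Slc8a1 lies in the chromosome 17 interval, with a p16 log2 fold change of -0.29 ± 0.11 that was not called. Gpatch11 was most like Gm6969 (0.92), Klhl9 (0.85) and Gm43305 (0.85). Klhl9 lies on chromosome 4 and was called, at 102 CPM in knockout and 120 CPM in intact libraries. Eif2ak2 was most like P2rx7 (0.85), 4933421O10Rik (0.84) and Crb1 (0.84), none of them called for p16. Neither Gpatch11 nor Heatr5b was among the 3 genes most like the other.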

How the data were processed

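Total RNA of 16 hippocampal samples was sequenced in bulk. The authors deposited 1 table of raw counts per gene, and the submitters' processing notes name the build GRCm38 and the tools STAR 2.5.2b, Trimmomatic 0.36, Subread 1.5.2, featureCounts and DESeq2. No source used here gives their roles, the strand setting or the release of the annotation, and overlapping genes may share reads. The 92 ERCC spike-in rows entered neither library sizes nor tests. Symbols and coordinates came from a GENCODE annotation of GRCm38 by Ensembl identifier, and promoter windows from RefSeq GRCm38.p6, which had a window for 5 of the 7 genes.

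Levels are CPM over summed gene counts. Fits used the deposited counts with TMM scaling in edgeR 4.0.16 and R 4.3.3: filterByExpr with a minimum count of 10 left 16372 genes, and 1 robust quasi-likelihood fit held all 16 libraries with 1 mean per group. The threshold was an adjusted p of 0.05 (Benjamini-Hochberg, 7 comparisons, each adjusted over all genes tested). Correlations used log2 CPM with a prior count of 2. The fit was tested on simulated data.

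The 7 genes, the 15 gene lists (184 genes, all found in the table) and the tests were chosen with earlier results of these data known. Genes named besides the 7 are Cdkn2a and Prnp, the 3 most correlated genes and nearest tested neighbours of each, the genes of lowest adjusted p in a list, and the substrain list; some genes that this rule names are left out here. Ttc27, Myo1f, Padi2, Rsg1, Arhgef19, Pon2 and Kirrel2 were named after their values were seen. Counts differed between replicates by more than sampling noise (chi-square per degree of freedom 4.72 to 25.4), so none was treated as a repeat. Alternatives were RLE scaling, no scaling, DESeq2 1.42.0, limma-voom (limma 3.58.1), other filters, a replicate block, terms for the number and suffix in the library names, no robust dispersion, only the compared groups, a widened interval, and leaving out each library.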

Additional observations from a re-analysis of the deposited data

How the results depend on the processing

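In 26 or 27 alternatives per comparison the p16 log2 fold changes of the 7 genes kept their direction and moved by less than 1 SD of the replicates, and no gene of the 7 passed the threshold for the transgene or the interaction (lowest adjusted p 0.210, Eif2ak2). Leaving out 1 library at a time, the average p16 log2 fold change of Nnt ranged from 0.43 to 0.54 and that of Gpatch11 from -0.51 to -0.43. Calls moved more: 2 to 7 of the 7 genes passed, and Gpatch11 and Cox7a2l did so in all 26 alternatives. For p16, 37 genes became 107 with DESeq2, 23 with the replicate block, 20 with the name suffix as batch, and 10 (without p16KO library 3) to 119 (without PS19 library 3) with 1 library left out. That count moved by over 1.5 times without any library except WT 1, p16KO 4, PS19_p16KO 3 and PS19_p16KO 4. The interval's 6 called genes became 3 with the block, 3 with the suffix and 2 to 7 with 1 library left out (by over 1.5 times without any except WT 3, PS19 3, PS19_p16KO 3 and PS19_p16KO 4). For the transgene, 64 genes became 179 with DESeq2, 39 with limma-voom, 18 with the suffix, 155 with the library number, and 15 (without p16KO library 3) to 206 (without PS19 library 3), by over 1.5 times without any library except PS19 1, PS19 4 and PS19_p16KO 2. For the interaction, 1 gene became 6 with RLE scaling, 88 with DESeq2, 0 with limma-voom, 20 with no filter, 5 with the block, 13 with the suffix, 57 with the library number, 2 without robust dispersion, and 1 to 160 (without PS19 library 3), with 2 or 3 without WT 1, WT 4, p16KO 4, PS19 1, PS19 4 or PS19_p16KO 3. The correlations after group means without PS19_p16KO library 4 were added after seeing the data. The causes were not tested. Same-numbered libraries correlated at -0.39 to 0.22 in their deviations from group means over 24 pairs, so the numbers were not taken to pair samples. The low counts of Eif2ak2 and Cdkn2a limit what single libraries show.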
